A study of Homo sapiens with 6 samples.

Results

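The metallothioneins and their zinc-responsive partners were described in the human cell line THP-1, a monocytic line established from an acute myeloid leukaemia, with and without knockdown of GOT1, the cytosolic aspartate aminotransferase. The 7 genes are the metallothioneins MT2A, MT1E, MT1F, MT1G and MT1X, the zinc-sensing transcription factor MTF1 and the zinc exporter SLC30A1. They were picked by gene name from a table of 20263 genes, with their difference between shGOT1 and shNC already known, so their values in that contrast are given as a description with no test. All 7 were in the table, and all 7 passed the filter on low counts that left 13735 genes to test. Poly(A) RNA was sequenced from 3 libraries of THP-1 cells carrying a hairpin against GOT1 (genotype labelled GOT1 knockdown, here shGOT1) and from 3 libraries of THP-1 cells carrying the hairpin labelled shNC (genotype labelled wt). The labels name a single GOT1 hairpin and give no drug, metal or other treatment, so that other effects of this hairpin cannot be told apart from loss of GOT1. Replicates are numbered as biological without mention of separate cultures or transductions. A p-value therefore reflects only how far these 6 libraries spread. The series title sets the comparison in ferroptosis, a cell death driven by iron and lipid peroxidation.

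Metallothioneins are small proteins rich in cysteine that bind zinc and copper, and also cadmium, through clusters of thiols. Free zinc activates MTF1, which binds metal response elements in the promoters of metallothionein genes and of SLC30A1, so that a cell with more zinc makes more of the proteins that store it and export it. Metallothionein genes also respond to glucocorticoids and to oxidative stress. In liver cancer cells MT1G has been described as limiting ferroptosis.

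Total counts were 26734767, 31236847 and 39144890 in the shGOT1 libraries and 26226977, 28500111 and 28712260 in the shNC libraries. GOT1 itself stood at 2.87 to 3.33 TPM (a level per gene length, with a fixed sum per library) in shGOT1 and at 15.3 to 16.7 TPM in shNC, and fell by 2.45 on the log2 scale (SE 0.0907, edgeR adjusted p = 1.26e-05). Counts from mitochondrial-genome genes made up 4.95% to 4.98% of each shGOT1 library and 4.45% to 4.83% of each shNC library. Monocytic markers were present in all 6 libraries, with LYZ (lysozyme), CD14 and CSF1R (the receptor of colony-stimulating factor 1) among them. Of 12 such markers, all tested, 3 were higher, 7 were lower and 2 did not pass, where of all genes tested 21.9% were higher and 22.8% lower, 44.6% together. The 3 higher were MPO, CD33 and FCGR1A (log2 fold changes of 0.67, 0.26 and 0.26). The summed level of the 12 was 2212 to 2281 TPM in shGOT1 and 2897 to 2940.0 TPM in shNC. Without LYZ, a sum chosen after seeing the data, the other 11 came to 2146 to 2197 TPM in shGOT1 and 2343 to 2406 TPM in shNC. LYZ fell the most (72.2 ± 10.1 TPM in shGOT1 and 552 ± 17.3 TPM in shNC, SD, n = 3 each; log2 fold change -3.05, SE 0.104, edgeR adjusted p = 9.98e-06). Lymphoid markers summed to 149.8 to 158 TPM in shGOT1 and 130.1 to 134 TPM in shNC, with 4 of the 5 tested higher and CD3E, CD3G, MS4A1 and KLRD1 at 0 in every library. Erythroid and megakaryocytic markers summed to 10.7 to 11.5 TPM in shGOT1 and 11.4 to 14.4 TPM in shNC (1 of 5 tested was higher, PF4 was at 0), and epithelial and fibroblast markers to 3.03 to 3.17 TPM in shGOT1 and 2.65 to 2.98 TPM in shNC (2 of 3 tested were higher and 1 lower, EPCAM, KRT5, CDH1, COL1A2, COL3A1 and DCN were at 0). In these bulk libraries fewer cells of a type and less RNA per cell cannot be told apart, and the part of the monocytic markers in the values below was not tested.

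The promoters below show how densely the core of the metal response element occurs beside these genes. RefSeq (GRCh38.p14) gave a promoter, 250 bases before to 50 after the annotated start, for 4 of the 7 genes, namely MT2A, MT1X, SLC30A1 and MTF1. MT1E, MT1F and MT1G are named without one. The core was searched as TGCGCNC or TGCACNC on both strands, which differ at the fourth base so that a match counts once. Capitals mark each match, read 5′ to 3′ on the gene's strand, and GNGTGCA or GNGCGCA in capitals is the core on the other strand. MT2A is shown as the most abundant of the metallothioneins, MT1X as a second expressed one, SLC30A1 as the exporter, and MT1H as a metallothionein with no count in any library. The windows are chr16:56608334-56608633 on the plus strand for MT2A, chr16:56682220-56682519 on the plus strand for MT1X, chr1:211579112-211579411 on the minus strand for SLC30A1 and chr16:56669564-56669863 on the plus strand for MT1H.
MT2A: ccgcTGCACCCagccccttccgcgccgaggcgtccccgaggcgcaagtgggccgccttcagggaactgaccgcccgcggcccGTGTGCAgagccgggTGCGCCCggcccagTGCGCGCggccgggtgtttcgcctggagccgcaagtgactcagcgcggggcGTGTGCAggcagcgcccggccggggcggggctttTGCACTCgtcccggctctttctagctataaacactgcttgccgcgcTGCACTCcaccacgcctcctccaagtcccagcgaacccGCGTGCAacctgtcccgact
MT1X: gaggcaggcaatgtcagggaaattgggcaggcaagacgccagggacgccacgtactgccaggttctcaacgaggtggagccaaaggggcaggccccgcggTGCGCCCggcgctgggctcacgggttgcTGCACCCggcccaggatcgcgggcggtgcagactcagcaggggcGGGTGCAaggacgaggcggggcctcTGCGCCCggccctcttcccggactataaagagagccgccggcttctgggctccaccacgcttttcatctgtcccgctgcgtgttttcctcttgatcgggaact
SLC30A1: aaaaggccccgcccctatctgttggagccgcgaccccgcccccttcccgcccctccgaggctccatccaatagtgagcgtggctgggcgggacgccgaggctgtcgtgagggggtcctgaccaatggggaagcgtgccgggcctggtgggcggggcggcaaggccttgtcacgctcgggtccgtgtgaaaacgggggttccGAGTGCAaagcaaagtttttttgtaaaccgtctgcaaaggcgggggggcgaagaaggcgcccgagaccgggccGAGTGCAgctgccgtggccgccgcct
MT1H: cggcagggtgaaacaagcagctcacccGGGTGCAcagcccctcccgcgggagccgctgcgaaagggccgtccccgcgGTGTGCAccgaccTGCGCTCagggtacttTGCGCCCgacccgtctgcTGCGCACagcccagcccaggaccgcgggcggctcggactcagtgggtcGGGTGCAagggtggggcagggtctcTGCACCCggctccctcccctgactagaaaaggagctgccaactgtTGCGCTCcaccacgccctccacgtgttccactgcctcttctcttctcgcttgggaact

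The MT2A window held 8 matches, 7 of them before the start, at positions -246 to -8, and 1 at 31 bases past it. At least 8 matches occurred in 0.0199% of the 35116 promoters of the same length. MT1X had 4 matches, a number reached by 0.601% of promoters, and SLC30A1 had 2, reached by 8.6%. MTF1 had 0 matches in its window (chr1:37859543-37859842, minus strand), where 29.6% of all promoters had at least 1. MT1H held 8 matches, as many as MT2A, although it had no count in any library, and MT1B and MT4, also without a count, held 3 each (2.3% of promoters had at least 3). Matches thus also occurred beside genes without a count. Among the genes with counts, MT2A had the most matches and the highest level, followed by MT1X (400.2 and 223 TPM on average in shNC). SLC30A1 and MTF1, with the fewest matches, were both at 12.9 TPM in shNC. MT1E, MT1F and MT1G had no window, and a relation between matches and level was not tested. MT1X and MT1H each carried a match at 78 and at 53 bases before the start, and MT2A and MT1H each carried one at 8 bases before it. The MT2A window lies inside the gene as placed in the table (56608199 to 56609497). The SLC30A1 window lies wholly outside the gene as placed there (211571568 to 211578742). A match describes letters and is not evidence of binding.

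The 7 genes did not move together. In shGOT1 libraries MT1G was almost lost, MT1F, MT1X and MTF1 were lower, MT1E was higher, and MT2A and SLC30A1 differed little from shNC. In the edgeR fit of the whole table, 5 of the 7 were past an adjusted p of 0.05, 1 higher and 4 lower, where 44.6% of all genes tested were past it, 21.9% higher and 22.8% lower. Since the genes were chosen from this contrast, nothing is read from that count. Their median log2 fold change (shGOT1 over shNC, from edgeR's fit to counts) was -0.37, beside 0.005 for all genes tested. TPM values of the groups did not overlap for 6 of the 7 genes, as for 55.2% of all genes tested. The shGOT1 libraries were the higher ones for 2 of these, MT1E and MT2A (36.4% of all genes tested), and the lower ones for 4 (18.8%). Counts scaled to the library total (CPM) did not overlap for 5 of the 7, as for 58% of all.

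**Figure D1:**
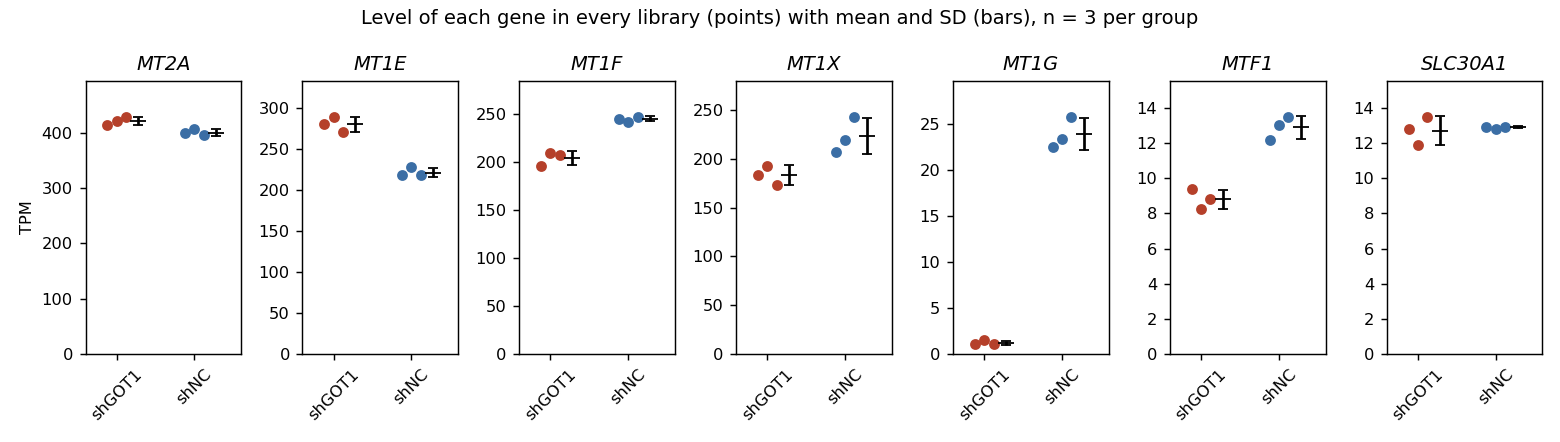
TPM of each of the 7 genes in every library (points, shGOT1 in red on the left and shNC in blue on the right), with the mean and SD of 3 libraries beside the points; each panel has its own axis from 0. MT1G is near 0 in shGOT1 and above 22 TPM in shNC, MT1E and MT2A have their shGOT1 points above the shNC points, and SLC30A1 overlaps.

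MT1G carried by far the largest difference. MT1G (ENSG00000125144, chromosome 16 from 56666731 to 56668065, minus strand) had counts of 7, 11 and 10 in shGOT1 libraries and of 134, 150 and 169 in shNC libraries. As levels these were 1.09, 1.51 and 1.06 TPM in shGOT1 and 22.5, 23.4 and 25.8 TPM in shNC. Every shGOT1 library was far below every shNC library, and MT1G was a minor metallothionein even in shNC. The fitted log2 fold change was -4.27 (SE 0.173), 19.3-fold lower, and only 21 of the genes tested had a lower value. The ratio of summed counts, 28 in shGOT1 and 453 in shNC, scaled to the summed library totals, was 18.8-fold lower in shGOT1, with a 95% interval of 12.9 to 28.7 that covers counting error only. On log scales of TPM the size depends on the constant added, and it ran to -2.22 with limma on log2(TPM + 5).

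MT2A, the most abundant metallothionein of these cells, was close to level. MT2A (ENSG00000125148, chromosome 16 from 56608199 to 56609497, plus strand) had 414, 421 and 429 TPM in shGOT1 and 399, 406 and 395 TPM in shNC. The TPM groups did not overlap, with the shGOT1 libraries higher, yet the CPM groups did overlap. The fitted log2 fold change was -0.03 (SE 0.0271), and its sign turned under 4 of 16 alternatives, all on TPM or FPKM without rescaling, within a range of -0.04 to 0.07. On those scales the whole table shifted upward in shGOT1, with a median log2 difference of all genes tested of 0.093 on log2(TPM + 1) and 0.11 on log2(TPM + 0.1), so the direction of MT2A is not settled by these data.

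MT1E was higher after knockdown. MT1E (ENSG00000169715, chromosome 16 from 56625475 to 56627112, plus strand) had 280.3, 289.5 and 271 TPM in shGOT1 and 218, 228 and 218 TPM in shNC. All shGOT1 libraries lay above all shNC libraries, in TPM and in CPM. The log2 fold change was 0.25 (SE 0.0426), or 1.19-fold, and stayed between 0.22 and 0.34 under the alternatives.

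MT1F and MT1X were lower by similar amounts. MT1F (ENSG00000198417, chromosome 16 from 56657694 to 56659305, plus strand) had 196, 209.7 and 207 TPM in shGOT1 and 245, 241 and 247 TPM in shNC, a log2 fold change of -0.37 (SE 0.0394). MT1X (ENSG00000187193, chromosome 16 from 56682424 to 56684196, plus strand) had 183, 193 and 173 TPM in shGOT1 and 207, 219.6 and 243 TPM in shNC, a log2 fold change of -0.40 (SE 0.0752). Groups did not overlap for either gene, and MT1X was the more variable of them in shNC, with an SD of 18.3 TPM against 2.96 TPM for MT1F.

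The regulator and the exporter differed from each other. MTF1 (ENSG00000188786, chromosome 1 from 37809567 to 37859620, minus strand) had 9.36, 8.25 and 8.80 TPM in shGOT1 and 12.2, 13.0 and 13.5 TPM in shNC. Its groups did not overlap, and the log2 fold change was -0.66 (SE 0.0612), 1.58-fold lower. SLC30A1 (ENSG00000170385, chromosome 1 from 211571568 to 211578742, minus strand), the exporter of zinc at the plasma membrane and a classical MTF1 target, had 12.8, 11.9 and 13.5 TPM in shGOT1 and 12.9, 12.8 and 12.9 TPM in shNC. The shGOT1 values of SLC30A1 spread around those of shNC, and its log2 fold change was -0.12 (SE 0.0532), within a range of -0.16 to -0.01 under the alternatives.

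How the total amount of metallothionein message compared depended on the scaling, while the share of each gene does not depend on how libraries are scaled to each other. In the deposited TPM the 5 metallothioneins summed to 1075, 1115 and 1081 TPM in shGOT1 and to 1092, 1118 and 1129 TPM in shNC. The means were 1090.0 ± 21.6 TPM in shGOT1 and 1113 ± 18.8 TPM in shNC (SD, n = 3 each), a ratio of 0.979, and the libraries of the groups overlapped. The ratio was 0.973 in CPM, again with overlap, and 0.954 in FPKM, where 487.3 to 507.2 FPKM in shGOT1 and 508.1 to 526.1 FPKM in shNC did not overlap. After median-of-ratios scaling of TPM the sums were 1026 to 1079 in shGOT1 and 1131 to 1163 in shNC, a ratio of 0.91 with no overlap. In CPM with TMM factors the ratio was 0.931, also with no overlap. Both scalings of the sum were chosen after seeing the data.

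Within that sum MT1E and MT2A took larger shares after knockdown, and MT1F, MT1X and MT1G smaller ones. MT1E held 25.7% ± 0.53 of the summed TPM in shGOT1 and 19.9% ± 0.531 in shNC. MT2A held 38.7% ± 0.978 in shGOT1 and 36.0% ± 0.855 in shNC, the shGOT1 libraries at 38.6%, 37.7% and 39.7% and the shNC libraries at 36.5%, 36.3% and 35.0%. These 2 genes gained 5.86 and 2.71 percentage points, which the other 3 lost. MT1F held 18.7% ± 0.46 in shGOT1 and 22.0% ± 0.445 in shNC, and MT1X held 16.8% ± 0.722 in shGOT1 and 20.1% ± 1.34 in shNC. MT1G held 0.112% ± 0.0209 in shGOT1 and 2.15% ± 0.122 in shNC (SD, n = 3 each).

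**Figure D2:**
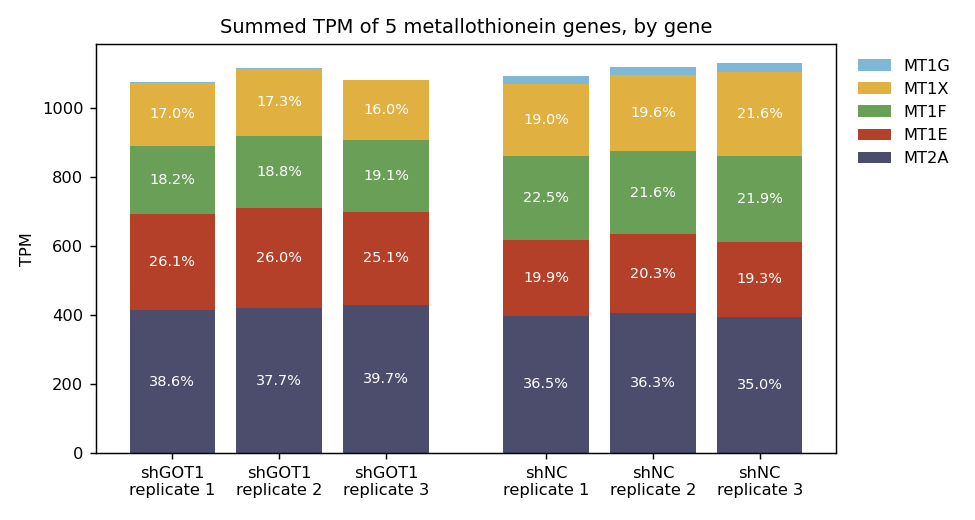
Stacked bars of the summed TPM of the 5 metallothionein genes in each library, shGOT1 libraries on the left and shNC libraries on the right, with each gene's percentage of the sum printed in its segment (MT1G is not labelled). Bar heights in these unscaled TPM are 1075 to 1115 TPM in shGOT1 and 1092 to 1129 TPM in shNC, while the MT1E segment is 25.1% to 26.1% in shGOT1 and 19.3% to 20.3% in shNC.

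Ratios within a library also do not depend on how libraries are scaled to each other. They restate the same TPM values as the shares and add no independent support. MT1E over MT1F came to 1.43, 1.38 and 1.31 in shGOT1 and 0.888, 0.943 and 0.881 in shNC. MT1E over MT1X came to 1.53, 1.5 and 1.57 in shGOT1 and 1.05, 1.04 and 0.895 in shNC. MT1E was the higher of each pair in every shGOT1 library, while in shNC its ratio to MT1F was below 1 in all 3 libraries. MT1F over MT1X came to 1.07, 1.08 and 1.2 in shGOT1 and 1.18, 1.10 and 1.02 in shNC, so the proportion of this pair overlapped between the groups.

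The order of the levels also differed. In shGOT1 it ran MT2A, MT1E, MT1F, MT1X and MT1G, with no overlap between neighbours over the 3 libraries. In shNC MT2A was again first and MT1G last, with MT1F, MT1X and MT1E between them. MT1F and MT1X overlapped there, and so did MT1X and MT1E. MTF1 was below SLC30A1 in shGOT1 (MTF1 at 8.80 ± 0.554 TPM, SLC30A1 at 12.7 ± 0.813 TPM), and level with it in shNC (12.9 ± 0.665 TPM for MTF1, 12.9 ± 0.045 TPM for SLC30A1, SD, n = 3 each).

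The 5 metallothioneins lie in a cluster on chromosome 16 that spans 119148 bases, from 56565049 to 56684196, and holds 11 genes of the table. MT1G is the gene of the cluster on the minus strand, between MT1F and MT1H. Its nearest tested relatives on either side, MT1F and MT1X, had log2 fold changes of -0.37 and -0.40, beside -4.27 for MT1G. None of the other 7 metallothionein rows passed the filter on low counts, and none was tested. MT1B, MT1H, MT4 and the chromosome 1 copy MT1HL1 had no count in any library.

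MT1A and MT1M, a pair of rare cluster genes, showed opposite patterns at very low counts. MT1A had counts of 8, 11 and 4 in shGOT1 and of 0, 1 and 0 in shNC, a ratio of summed counts of 19.8-fold higher with a counting interval of 3.21 to 814. MT1M had counts of 0, 0 and 0 in shGOT1 and of 8, 5 and 4 in shNC, at least 6.60-fold lower against a floor of 3 counts over the group. MT3, the metallothionein known from brain, had counts of 0, 3 and 0 in shGOT1 and 0 in every shNC library, at or under the floor in both groups. Of the 50-base words in their transcripts, 5.76% of those of MT1A and 9.87% of those of MT1M also occur in another gene, and the part of reads from abundant paralogs in these counts was not tested.

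**Figure D3:**
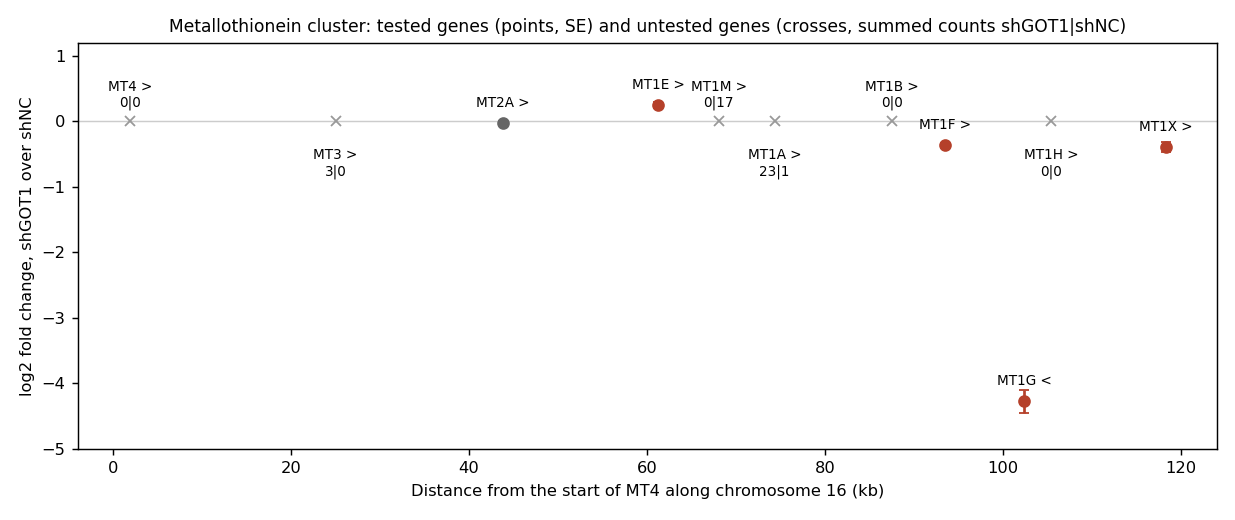
Log2 fold change (shGOT1 over shNC, with SE) of the tested metallothioneins against distance in kb from the start of MT4 along chromosome 16; red points are past an adjusted p of 0.05 in the whole table and the grey point (MT2A) is not. Crosses at 0 mark genes too low to test, with their summed counts in shGOT1 and then shNC, and arrows give the strand; MT1G at -4.27 stands apart from MT1F, MT1X, MT1E and MT2A, which lie between -0.40 and 0.25.

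Metallothionein messages resemble each other, and reads could be split between them. In the GENCODE release used here, of all 50-base words of a gene's transcripts, 16.5% of those of MT1G and 18.3% of those of MT1X also occurred in another gene, against 7.1% for MT1E, 3.02% for MT2A and 1.22% for MT1F. At 100 bases the shared part was 0 for MT1G, MT1E, MT1F and MT2A and 11.3% for MT1X, all of it with AC026461.1, a transcript that overlaps MT1X on the same strand and is not in the table. The read length is not given in the sources used here, so the values of MT1G and MT1X carry this uncertainty. None of the 7 genes overlaps another gene of the table.

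MTF1 was lower together with the genes around it. Within 1 Mb on either side, 13 of the 14 tested neighbours were lower at an edgeR adjusted p under 0.05 and none was higher, where 22.8% of all genes tested were lower. The log2 fold changes of all 14 were negative, from -1.28 for RRAGC to -0.09 for MANEAL, which did not pass, with a median of -0.72 beside 0.005 for all genes tested. MTF1 itself, at -0.66, sat within the range of its neighbours. C1orf122, whose annotated end is 113 bases from MTF1, differed by -0.86 (edgeR adjusted p = 4.95e-05), and INPP5B, a phosphoinositide phosphatase gene 1077 bases away on the other side, by -1.03 (edgeR adjusted p = 0.000162). This stretch of chromosome 1 was already known to be lower in these data when the genes were chosen, so the neighbours describe the setting of MTF1 and add no independent support. Over 2 Mb 30 of 40 tested neighbours were lower and 4 higher.

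Neighbours of SLC30A1 lay on both sides of 0. Of 11 tested neighbours of SLC30A1, 2 were higher and 2 lower, with a median of -0.03 that changed sign with the window, at 0.18 over 500 kb and 0.09 over 2 Mb. Around the metallothionein cluster 13 of 26 were higher and 2 lower (of all genes tested, 21.9% were higher and 22.8% lower), with a median of 0.26 over 1 Mb and of 0.002 over 500 kb. Among the nearest 3 tested genes on each side of the cluster, log2 fold changes lay between -0.38 and 0.18. NUDT21, a subunit of the mRNA cleavage factor, had 76.1 ± 1.41 TPM in shGOT1 and 63.6 ± 2.20 TPM in shNC (SD, n = 3 each; log2 fold change 0.15, SE 0.0314, edgeR adjusted p = 0.0102). BBS2, the tested gene nearest to the cluster, had 12.5 ± 1.37 TPM in shGOT1 and 14.7 ± 1.12 TPM in shNC (-0.38, SE 0.108, edgeR adjusted p = 0.029), a call lost under 9 of 16 alternatives, among them leaving out shNC replicate 1 or 2 or any shGOT1 library (adjusted p 0.0592 to 0.0867). OGFOD1 (0.18), NUP93 (-0.08), SLC12A3 (-0.34) and HERPUD1 (-0.37) did not pass the test (edgeR adjusted p 0.108 to 0.688).

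**Figure D4:**
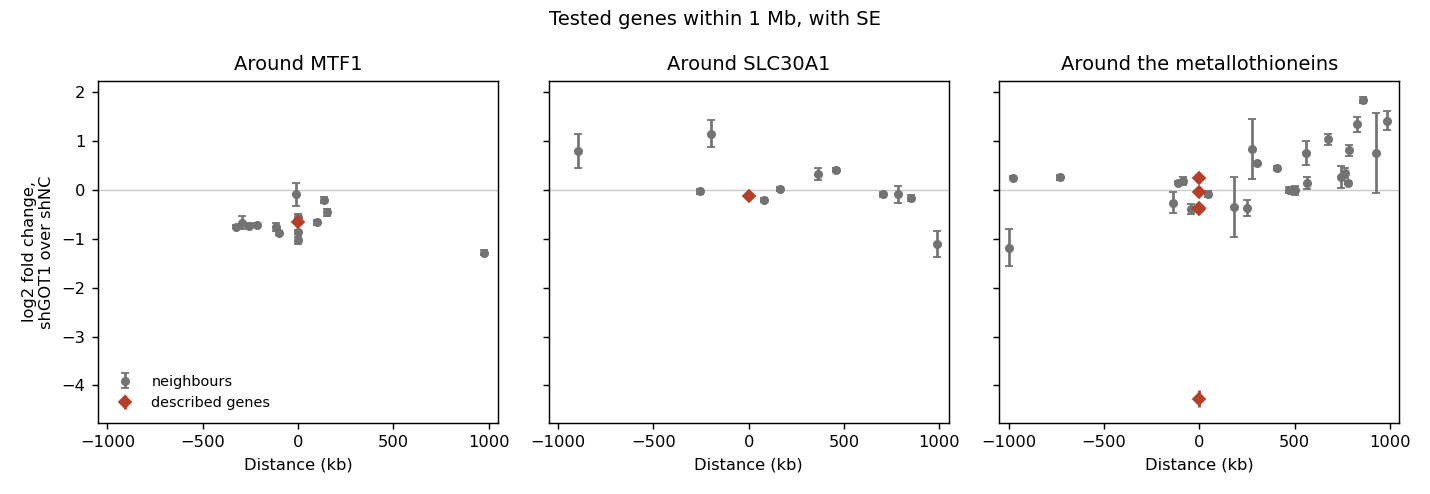
Log2 fold change (shGOT1 over shNC, with SE) of every tested gene within 1 Mb of MTF1, of SLC30A1 and of the metallothionein cluster, against distance in kb (negative is towards lower coordinates); grey points are neighbours and red diamonds the genes described here. All 14 neighbours of MTF1 lie below 0 with a median of -0.72, while those of SLC30A1 lie on both sides of 0.

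Zinc importers of the SLC39 family, which bring zinc into the cytosol from outside or from organelles, were higher in part. Of 14 listed, 11 were tested, and 6 rose, none fell and 5 did not pass. That is 54.5% past the threshold, where of all genes tested 44.6% were past it, 21.9% higher and 22.8% lower. An importer was lower, beside 5 higher ones, with limma on TPM rescaled by the median of ratios and without shNC replicate 2, and beside 6 higher ones without shGOT1 replicate 2. Without shGOT1 replicate 3 the number past the threshold was 4, all higher. The importers' median log2 fold change was 0.18, beside 0.005 for all genes tested. SLC39A14, which carries zinc, iron and manganese, had 60, 52.1 and 54.6 TPM in shGOT1 and 27.4, 27.9 and 28.6 TPM in shNC (log2 fold change 0.84, SE 0.0656, edgeR adjusted p = 0.000194). SLC39A10, an importer of the plasma membrane, had 11.4, 11.5 and 13.0 TPM in shGOT1 and 6.88, 6.91 and 6.75 TPM in shNC (0.72, SE 0.0504, edgeR adjusted p = 0.000127). For both genes every shGOT1 library was above every shNC library. SLC39A7, which releases zinc from the endoplasmic reticulum, had 315, 311 and 311 TPM in shGOT1 and 209, 205 and 207 TPM in shNC (0.49, SE 0.0184, edgeR adjusted p = 1.28e-05). SLC39A6 also rose (0.35, SE 0.0593, edgeR adjusted p = 0.00428). SLC39A8, the importer known to be induced in activated monocytes, had 30.7, 30.3 and 32.9 TPM in shGOT1 and 30.3, 30.8 and 32.3 TPM in shNC (-0.09, edgeR adjusted p = 0.165), and its sign turned under 3 of 16 alternatives.

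Among zinc exporters other than SLC30A1, 1 gene rose. Of 9 listed, 5 were tested and 4 of these did not pass (20% past the threshold, beside 44.6% of all genes tested), and SLC30A2, SLC30A8 and SLC30A10 were at 0 in every library. SLC30A5, which loads zinc into the secretory pathway, had 35.8, 35.8 and 36.2 TPM in shGOT1 and 26.3, 26.3 and 30.5 TPM in shNC (log2 fold change 0.37, SE 0.0637, edgeR adjusted p = 0.00456). No difference in the share of calls between exporters and importers was tested.

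Copper handling genes, of interest because metallothioneins also bind copper, were past the threshold about as often as all genes. Of 14 rows, all tested, 2 rose, 5 fell and 7 did not pass (50% past the threshold, near the 44.6% of all genes tested, of which 21.9% were higher and 22.8% lower; SCO2 occurs in 2 rows). ATP7B, a copper-exporting ATPase, had 2.99, 2.98 and 2.43 TPM in shGOT1 and 1.02, 1.33 and 1.24 TPM in shNC (log2 fold change 0.98, SE 0.194, edgeR adjusted p = 0.00821). ATP7A, its paralog, differed the other way (-0.37, SE 0.0954, edgeR adjusted p = 0.0222), a call lost under 8 of 15 alternatives, among them without shGOT1 replicate 2 or 3 or shNC replicate 1 or 3 (adjusted p 0.0547 to 0.0663). COX19, a copper-related assembly factor of cytochrome c oxidase, fell by 0.44 (SE 0.0409, edgeR adjusted p = 0.000383). COX17, a copper chaperone of the same enzyme, was at -0.30 (SE 0.0798, edgeR adjusted p = 0.0231), a call lost under 7 of 16 alternatives, among them without shGOT1 replicate 1 or 3 or shNC replicate 1 or 2 (adjusted p 0.0594 to 0.0702). The copper importer SLC31A1 did not pass (-0.09, edgeR adjusted p = 0.0527). The count of 7 was 3 without shGOT1 replicate 3 and 4 without shNC replicate 1 or shNC replicate 2.

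**Figure D5:**
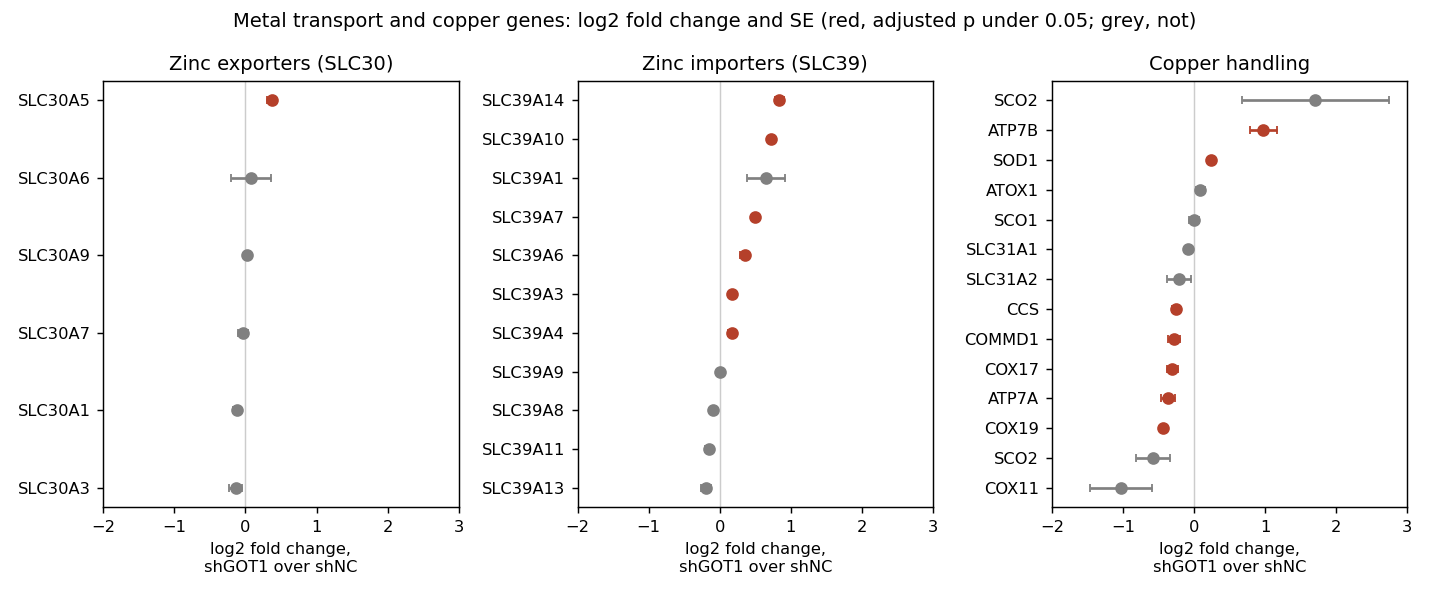
Log2 fold change (shGOT1 over shNC, with SE) of each tested zinc exporter, zinc importer and copper handling gene; red points are past an edgeR adjusted p of 0.05 over all genes tested and grey points are not. SLC39A14, SLC39A10 and SLC39A7 lead the importers at 0.84, 0.72 and 0.49 among called genes, SLC30A1 is grey among the exporters, and SCO2 has 2 rows in the table and both are drawn.

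Zinc and copper genes together gave 14 of 30 past the threshold, 9 higher and 5 lower. That is 46.7%, near the 44.6% of all genes tested, and so is no result about metal handling as a whole. Without shGOT1 replicate 3 the count was 8, with 7 higher and 1 lower. On log2(TPM + 1) with limma it was 10, with 9 higher and 1 lower, so the share that is higher moved to 90.0%, against 64.3% in the edgeR fit. For the whole table the same change of scale moved that share to 66.4%, against 49.0%.

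Among other factors known to act at metallothionein promoters, USF2 and NFE2L2 fell. Of 8 listed, all tested, none rose, 2 fell and 6 did not pass (25% past the threshold, beside 44.6% of all genes tested). USF2, a factor that binds E-box and antioxidant elements, had 162, 151 and 149 TPM in shGOT1 and 182, 177 and 176 TPM in shNC (log2 fold change -0.28, SE 0.0371, edgeR adjusted p = 0.0015). NFE2L2, which encodes the oxidative stress factor NRF2, had 41.0, 38.6 and 34.4 TPM in shGOT1 and 47.7, 41.7 and 44.1 TPM in shNC (-0.33, SE 0.055, edgeR adjusted p = 0.00419). It did not pass with limma on TPM or FPKM without rescaling (adjusted p 0.0502 to 0.073). It passed with limma on TPM rescaled by the median of ratios (adjusted p = 0.0222). NR3C1, the glucocorticoid receptor, had 20, 18.8 and 21.9 TPM in shGOT1 and 16.3, 19.1 and 17.6 TPM in shNC, overlapping groups that did not pass (0.14, edgeR adjusted p = 0.102; 0.0473 without shGOT1 replicate 1).

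Genes known to respond to heavy metals through heat shock and oxidative stress factors were mostly lower. Of 12 listed, all tested, 8 fell, 3 rose and 1 did not pass, with a median log2 fold change of -0.71. That is 91.7% past the threshold, where of all genes tested 44.6% were past it, 21.9% higher and 22.8% lower. The list was chosen with earlier results of these data known, so nothing is read from that share. HSPA6, an inducible heat shock protein, had 5.77, 6.79 and 5.70 TPM in shGOT1 and 35.1, 37.2 and 38.6 TPM in shNC (log2 fold change -2.70, SE 0.0889, edgeR adjusted p = 9.36e-06). GDF15, a stress-induced cytokine, had 2.68, 2.09 and 2.57 TPM in shGOT1 and 11, 9.03 and 10.4 TPM in shNC (-2.17, SE 0.152, edgeR adjusted p = 0.00013). HSPA1A (-1.54) and HSPA1B (-1.59) fell as well, and since they are near-identical copies their reads cannot be told apart with certainty. HSPA6 likewise has a close pseudogene copy, HSPA7. The 3 that rose were GCLM (0.44), which encodes a subunit of the enzyme that starts glutathione synthesis, SRXN1 (0.24) and BAG3 (0.21), chosen here after their values were seen. TXNRD1, also named after its value was seen, did not pass (0.44, SE 0.151, edgeR adjusted p = 0.0558), though its shGOT1 TPM were all above those of shNC. With the DESeq2 test all 12 were past the threshold, 4 higher and 8 lower.

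Glucocorticoid response genes showed no common direction. Of 10 listed, all tested, 1 rose, 2 fell and 7 did not pass (30% past the threshold, beside 44.6% of all genes tested). ZBTB16 had 3.54, 4.24 and 3.48 TPM in shGOT1 and 0.746, 0.446 and 0.6 TPM in shNC (log2 fold change 2.42, SE 0.186, edgeR adjusted p = 0.000181). SGK1, a kinase gene induced by the same hormones, had 30.6, 24.5 and 31.4 TPM in shGOT1 and 59.2, 55.7 and 66.8 TPM in shNC (-1.23, SE 0.0851, edgeR adjusted p = 0.000125). PER1 was at -0.56 (SE 0.146, edgeR adjusted p = 0.0226) and lost its call without shNC replicate 2 or 3 (adjusted p 0.0603 and 0.0678).

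The genes whose profile over the 6 libraries was most like the mean profile of the 5 metallothioneins were sought by Euclidean distance between centred log2 CPM values, among 10402 tested genes that averaged 5 TPM or more in shGOT1 or in shNC. They were SMIM14 (distance 0.0753), NUPR1, a stress-inducible nuclear protein gene (0.0766), SRSF4, a splicing factor gene (0.0789), AKR1A1, an aldehyde reductase gene (0.0792), and ACAP3 (0.0812). Their log2 fold changes lay between -0.93 and -0.87, and since the genes were picked for this profile, these values describe the selection. The mean profile includes MT1G, at a log2 fold change of -4.27, while the other metallothioneins lay between -0.40 and 0.25. It therefore stands for no single metallothionein. The metallothioneins themselves were farther from it, at 0.647 for MT1X, 0.67 for MT1F, 1.09 for MT2A, 1.42 for MT1E and 3.8 for MT1G. Of the candidate genes, 4380 were nearer to the metallothionein mean than MT2A was, and 7876 were nearer than MT1E was.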

How the data were processed

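Poly(A) RNA-seq of 3 shGOT1 and 3 shNC libraries of THP-1 cells was used as 1 table of 20263 genes. The authors deposited counts, TPM and FPKM for every gene in every library. Tools named per the submitters' processing notes are StringTie, DESeq2, Trimmomatic and FastQC, with versions, aligner, genome build and strand setting not given in the sources used here. Counts as deposited are whole numbers and not normalized. StringTie works from read coverage, which means that a count is not always a number of reads, and intervals and floors cover counting error only. The deposited TPM values are scaled to gene length and a fixed total, and the deposited FPKM values to gene length and depth.

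Counts were tested with edgeR 4.0.16 in R 4.3.3 (filterByExpr, TMM, glmQLFit and glmQLFTest, 2-sided, Benjamini-Hochberg threshold 0.05 over 13735 genes), with all 6 libraries in 1 fit and no covariate. CPM are counts scaled to the total count of a library. The total count per library, 26226977 to 39144890, sets the precision, and 3 counts are 0.0766 to 0.114 CPM. Columns were matched to samples by the library names in the labels. Replicates of a group had a chi-square of 18.2 to 21.5 per degree of freedom, far above counting noise, and none was treated as a duplicate. Alternatives were DESeq2 1.42.0, its size factors in edgeR, other filters, limma 3.58.1 on log2 TPM or FPKM, a replicate block and leaving out each library. Only the edgeR fit with TMM was tested on simulated counts.

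The 7 genes, the lists (other metallothioneins, zinc exporters, zinc importers, copper handling, metallothionein promoter factors, heavy metal stress, glucocorticoid response and cell type markers) and the tests were chosen with earlier results of these data known. Named genes are the 7, every other metallothionein, GOT1, up to 4 called genes per list with the largest change, 6 fixed ones (SLC39A10, SLC39A14, SLC39A8, SLC31A1, NFE2L2 and NR3C1), the nearest 3 tested genes on each side of the cluster and the 5 nearest profiles; marker lists are given mainly as counts and sums, and other neighbours of MTF1 were named after their values were seen. Gene coordinates are as in the table. Those of 6 of the 7 genes equal GENCODE release 29 on GRCh38 and those of MT1F do not. Promoters are from RefSeq on GRCh38.p14, and their annotated start need not be the start in the table, from which it differs for MT2A and SLC30A1.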

Additional observations from a re-analysis of the deposited data

How the results depend on the processing

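The count of 5 of the 7 genes past the threshold, with 1 higher and 4 lower, was the same under all 16 alternatives. Of all genes tested, 35.7% to 49% were past it under these alternatives. They refit the same libraries, and the genes were chosen from this contrast, so nothing is read from that count. The directions of MT1E, MT1F, MT1G, MT1X and MTF1 were also the same. Their log2 fold changes moved most on unscaled log2 TPM or FPKM. Counts of 6128 genes in the whole table ran to 5222 with the replicate block and from 5179 to 5361 without 1 library. With the replicate block 5 of the 7 genes passed, and 8 zinc and copper genes were higher and 6 lower, against 9 and 5 without it. Libraries with the same number did not deviate together (r of 0.0282, 0.00893 and -0.000322 across genes), so the block carries a number only; with it PER1 was at an adjusted p of 0.0538. Zinc and copper genes together ran from 8 to 14 when 1 library was left out, and copper genes from 3 to 6. Copper genes numbered 3 with limma on log2(TPM + 1), log2(TPM + 0.1) or log2(TPM + 5), and promoter factors 1 on these scales and on log2(FPKM + 1), against 7 and 2. Zinc importers with the block were 5 higher and 1 lower. The summed metallothionein ratio was 0.954 in FPKM, 0.910 after median-of-ratios scaling of TPM and 0.931 with TMM, against 0.979. Medians of neighbours were 0.002 around the metallothionein cluster over 500 kb, -0.662 around MTF1 over 2 Mb, and 0.176 and 0.090 around SLC30A1 over 500 kb and 2 Mb, against -0.027 over 1 Mb. Log2 fold changes of the 7 genes moved by more than 1 SD between replicates in 27 combinations of gene and alternative, all on log2 TPM or FPKM. Calls of other named genes were lost in 31 such combinations and gained in 6; the cause was not tested. Depth limits MT1A, MT1M and MT3, whose counts do not exceed 11, and MT1G in shGOT1, where they do not exceed 11 either. The unstated read length limits how far paralogs can be separated.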

Other observations

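The profile of MT1G alone was also compared with the same candidate genes, a choice made after its values were seen. The nearest were FCGBP, which encodes an IgG Fc binding protein (distance 0.502, log2 fold change -4.28), FCN1, which encodes the monocyte lectin ficolin-1 (0.537, -3.79), S100A12, a calgranulin gene (0.740, -3.44), C1QC, a chain of complement C1q (0.770, -3.61), and PRSS57, a serine protease gene (0.775, -3.51). FCN1, S100A12 and C1QC are genes of myeloid cells. All 5 were picked for having the profiles nearest to that of MT1G, so their fold changes describe the selection.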
